A study of Mus musculus with 18 samples.

Results

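A set of 6 genes that mark hypothalamic nuclei next to the arcuate nucleus was followed through RNA sequencing of arcuate tissue. They were chosen by name: Nr5a1, Fezf1 and Adcyap1 for the ventromedial nucleus, Hcrt and Pmch for the lateral hypothalamic area, and Brs3 for the dorsomedial and other nuclei. These are 6 of the 23235 gene symbols in the deposited tables, and all 6 were measured in all 18 libraries. The tissue came from C57/BL female mice of 3 genotypes: wild type (WT), ERKO, which lack the estrogen receptor ERα, and KIKO. The KIKO name is generally used for mice with a null allele and a knock-in allele whose ERα does not bind estrogen response elements. All mice had their ovaries removed and were injected on day 5 and day 6 after surgery with oil, or with estradiol benzoate (E2) at 250 ng and then 1500 ng. The arcuate nucleus was dissected 24 h after the second injection, following a fast of 1 h. Genotype and treatment made 6 groups of 3 libraries (n = 3 in every group), each named by both (WT oil, for example). The labels do not say how the alleles were built or whether a library is a single animal, so p-values measure the spread between libraries, which may in part be technical.

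The arcuate nucleus lies at the base of the third ventricle, with the ventromedial nucleus above its outer edge, the dorsomedial nucleus farther up and the lateral hypothalamic area to the side. Nr5a1 (steroidogenic factor 1) and Fezf1 are transcription factors needed to form the ventromedial nucleus. Adcyap1 encodes the peptide PACAP, abundant in the same nucleus and present in others. Hcrt encodes the orexin peptides, which promote wakefulness, and Pmch encodes melanin-concentrating hormone, which promotes feeding. Both are made by separate neurons of the lateral hypothalamus. Brs3 is an orphan receptor of the bombesin family that lowers food intake and body weight, and it is found in the dorsomedial, paraventricular and preoptic hypothalamus.

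Values are FPKM, which divide the fragments of a gene by its transcript length and by the size of the library, and so can be compared between genes. Genes were tested with limma on log2(FPKM + 1), with adjusted p-values (Benjamini-Hochberg) over the 14831 genes whose mean reached 0.5 FPKM and a threshold of 0.05. All 6 markers entered the test. A change is a difference between group means on that log2 scale, given with its standard error (SE).

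Brs3 was the only 1 of the 6 markers that passed a test of difference between groups. It was lowest in WT E2 and highest in the ERKO groups, and was 0.93 ± 0.16 (log2 change ± SE) higher in ERKO than in WT after E2. None of the other 5 markers passed the test in any of 9 comparisons. The 3 ventromedial markers varied together over the 18 libraries, with pairwise correlations of 0.72 to 0.81. Hcrt and Pmch, the lateral markers, did not pass the test for correlation with each other or with the ventromedial markers.

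Arcuate genes were abundant in every library: the summed level of 13 arcuate markers, led by Sst, Pomc and Tac2, ran from 3115 to 7623 FPKM. Esr1, which encodes ERα, was at 5.38 to 11.9 FPKM in WT oil, 3.45 to 5.89 in WT E2, 2.85 to 4.08 in the 6 KIKO libraries and 0.211 to 2.39 in the 6 ERKO libraries. It was lower in ERKO than in WT under oil (log2 change -1.49 ± 0.32, limma adjusted p = 0.0374). After E2 the change was -1.34 ± 0.32, with an adjusted p of 0.0585. Relative depth differed by library from 0.728 to 1.503. It is the median over 3071 genes of the ratio to each gene's geometric mean over the libraries. ERKO E2 library 3 stood apart: it correlated with the others at 0.914 to 0.947, against 0.956 to 0.990 among the other 17. Its FPKM values summed to 628500, against 492100 in WT oil library 1, the next highest. ERKO E2 library 3 also held the highest arcuate sum, 7623 FPKM, but the genes of that list went both ways. Sst, Pomc, Cartpt and Ghrh were highest of all 18 libraries there, at 1826, 1646, 1009 and 193.5 FPKM. Tbx3, Isl1, Prlr and Ghsr were lowest of all 18 there, at 10.82, 18.01, 5.049 and 1.328 FPKM. In ERKO E2 library 3, Avp reached 13110 FPKM and Oxt 7392 FPKM, against medians of 2911 and 1621 FPKM. Without it the Esr1 change after E2 was -0.88, with an adjusted p of 0.0381.

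Nr5a1, on chromosome 2, was detected in every library, at a median of 6.604 FPKM. In the WT oil libraries it was at 8.02, 7.69 and 4.98 FPKM, and in WT E2 at 6.26, 6.18 and 2.01 FPKM. KIKO oil held 12.4, 9.58 and 4.37 FPKM and KIKO E2 6.43, 12.4 and 5.503 FPKM. ERKO oil held 6.61, 6.598 and 8.26 FPKM and ERKO E2 10.5, 5.65 and 12.2 FPKM. The lowest value, in WT E2 library 3, was 6.18-fold below the highest, and each group overlapped the next in the order of means. That order ran from WT E2 (4.82 ± 2.43 FPKM, mean ± SD) through WT oil (6.90 ± 1.67), ERKO oil (7.16 ± 0.958), KIKO E2 (8.11 ± 3.75) and KIKO oil (8.78 ± 4.06) to ERKO E2 (9.45 ± 3.41). The change from WT to ERKO after E2 was 0.90 ± 0.39, with an unadjusted p of 0.0373 and a limma adjusted p of 0.398. Without WT E2 library 3, which had the lowest Nr5a1, it was 0.47 (limma adjusted p = 0.833). Across the 6 groups the limma F test gave an adjusted p of 0.714.

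Fezf1, on chromosome 6, varied less than Nr5a1, from 3.99 to 11.4 FPKM. WT oil libraries were at 8.10, 8.10 and 6.91 FPKM and WT E2 libraries at 6.70, 8.90 and 4.27 FPKM. KIKO oil libraries were at 8.46, 9.12 and 3.99 FPKM and KIKO E2 libraries at 5.34, 11.4 and 5.15 FPKM. ERKO oil libraries were at 5.38, 5.62 and 7.76 FPKM and ERKO E2 libraries at 8.76, 5.45 and 6.78 FPKM. All 6 group ranges overlapped, and the means lay between 6.25 ± 1.31 FPKM in ERKO oil and 7.71 ± 0.687 FPKM in WT oil. Fezf1 had the smallest changes of the 6 markers, from -0.28 to 0.37 over the 9 comparisons. Group membership accounted for 6.23% of its variance on the log2 scale, against a median of 32.9% over all tested genes.

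Adcyap1, on chromosome 17, was the most abundant of the 6 by median, at 19.4 FPKM. It was at 13.8, 20.5 and 20.4 FPKM in WT oil and at 16.2, 16.4 and 9.77 FPKM in WT E2. It was at 21.0, 26.2 and 11.1 FPKM in KIKO oil and at 12.4, 27.5 and 15.3 FPKM in KIKO E2. In ERKO oil it was at 21.0, 16.9 and 20.5 FPKM, and in ERKO E2 at 24.2, 18.4 and 26.8 FPKM. WT E2 had the lowest mean (14.1 ± 3.78 FPKM) and ERKO E2 the highest (23.1 ± 4.28 FPKM), and these 2 groups did not overlap. The change between them was 0.69 ± 0.31, with an unadjusted p of 0.0390 and a limma adjusted p of 0.405, and 0.46 without WT E2 library 3 (adjusted p = 0.781). The other groups had means from 18.2 to 19.5 FPKM, and each group overlapped its neighbours in the order of means. Its main receptor Adcyap1r1 was steadier, between 70.4 and 90.2 FPKM in the 18 libraries.

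**Figure D1:**
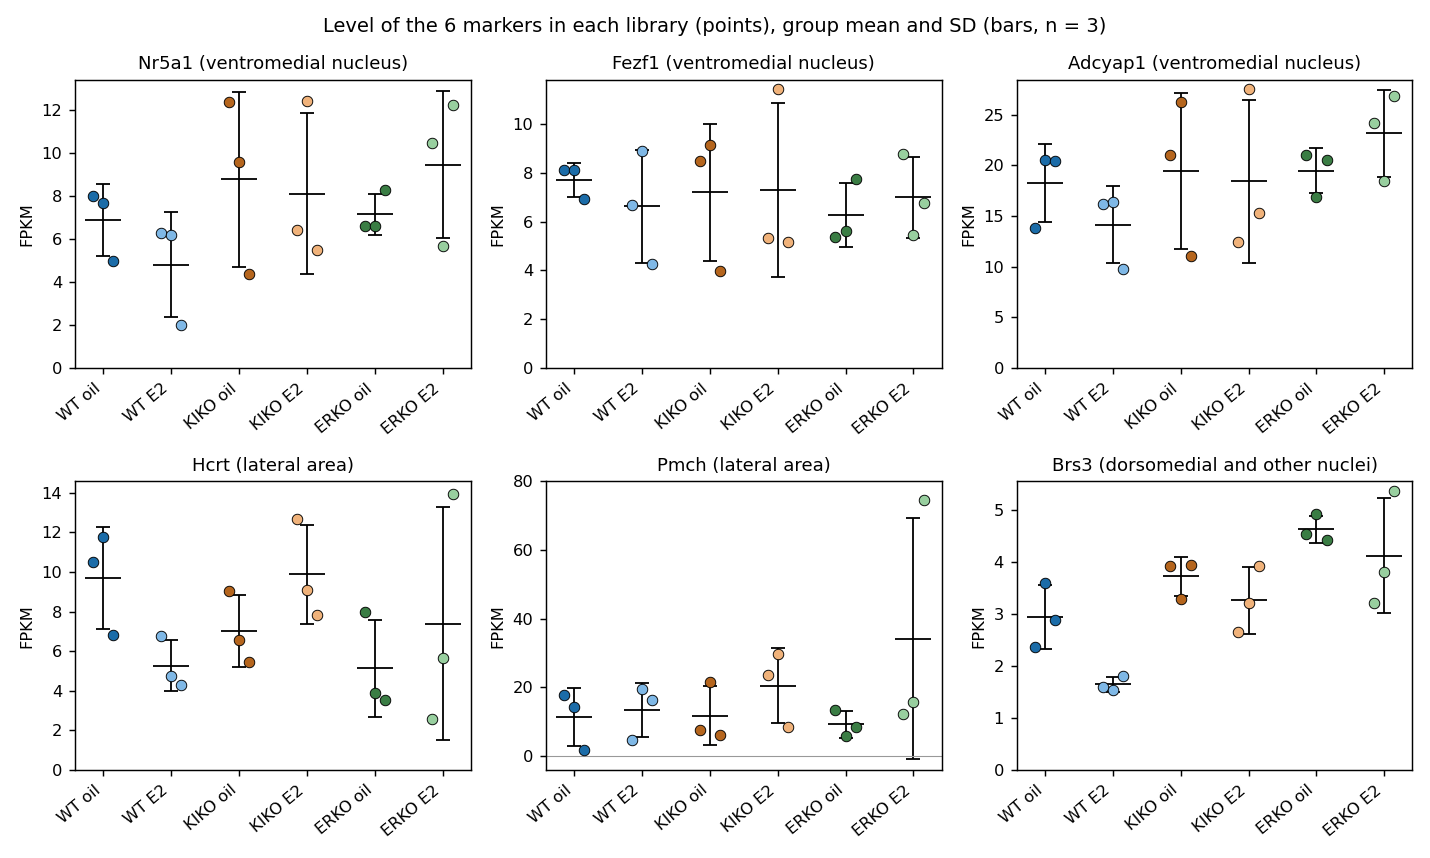
Level of each of the 6 markers (vertical axis, FPKM) in the 18 libraries (points), with the mean and SD of each group of 3 (bars). Brs3 is low in all 3 WT E2 libraries, at 1.54 to 1.82 FPKM, and Pmch reaches 74.6 FPKM in ERKO E2 library 3, which gives that group a bar that ends below 0.

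The 3 ventromedial markers shared their high and low libraries. KIKO E2 library 2 had the highest Nr5a1, Fezf1 and Adcyap1 of all 18, and WT E2 library 3 and KIKO oil library 3 were the 2 lowest of the 18 for each of them. Pearson's r on log2(FPKM + 1) over the 18 libraries was 0.81 for Nr5a1 and Adcyap1 (permutation p = 4e-05, adjusted over 15 pairs 0.0006). It was 0.76 for Nr5a1 and Fezf1 (permutation p = 0.0003, adjusted 0.00225) and 0.722 for Fezf1 and Adcyap1 (permutation p = 0.00083, adjusted 0.00415). Spearman's rho was 0.808 for Nr5a1 and Adcyap1 (permutation p = 0.00016, adjusted 0.0024), 0.719 for Nr5a1 and Fezf1 (0.00124, adjusted 0.0093) and 0.678 for Fezf1 and Adcyap1 (0.00281, adjusted 0.014). With each group's mean subtracted and the deviations of the 6 groups pooled, r was 0.774, 0.887 and 0.84 in the same order (permutation p adjusted over 15 pairs 0.0011, 7.5e-05 and 7.5e-05). These permutations shuffled all 18 deviations freely although 6 group means had been removed, so their p-values can be too small. Single groups of 3 could still differ from this: in WT oil, library 1 had the highest Nr5a1 and the lowest Adcyap1. With the group means kept, r was 0.688, 0.661 and 0.595 without the 2 libraries farthest from the median of the first gene. Without ERKO E2 library 3 it was 0.786, 0.808 and 0.765. In bulk tissue, a library with more cells of the ventromedial nucleus and a library with more marker RNA per cell cannot be told apart.

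Hcrt and Pmch were less closely tied, at r = 0.415 (permutation p = 0.0861, adjusted 0.242) and rho = 0.434 (permutation p = 0.073, adjusted 0.274). Within groups r was 0.565 (permutation p = 0.0135, adjusted 0.0507), with p-values that can be too small for the reason given above. With the group means kept, r was 0.241 without ERKO E2 library 3, beside the 0.415 of all libraries. Leaving out the 2 libraries farthest in Hcrt, ERKO E2 libraries 1 and 3, gave 0.3. The other 11 pairs, each between markers of different nuclei, had r from -0.113 to 0.437, and none passed. The strongest of these was Adcyap1 with Brs3 (r = 0.437, permutation p = 0.0689, adjusted 0.242). Whether r differs between pairs within a nucleus and pairs between nuclei was not tested.

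**Figure D2:**
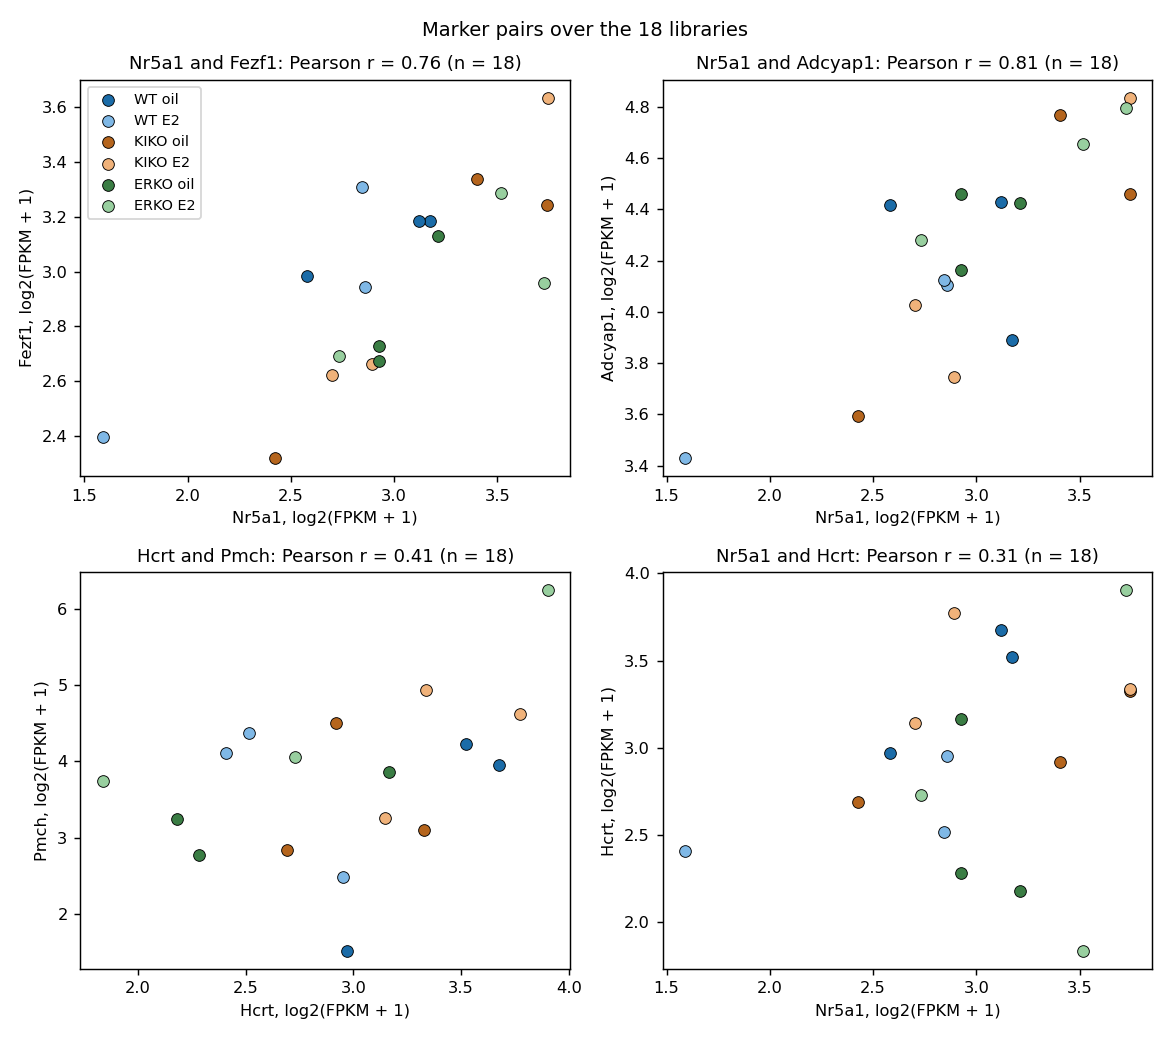
Marker pairs over the 18 libraries on log2(FPKM + 1) (both axes), coloured by group. Nr5a1 rises with Fezf1 (r = 0.76) and with Adcyap1 (r = 0.81), while Hcrt with Pmch and Nr5a1 with Hcrt (r = 0.306) scatter more widely.

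Other genes of the ventromedial list followed Nr5a1 only in part. Of the 14 listed genes besides Nr5a1, 5 had an r above 0.5 with it, against 2.85% of all tested genes. These were Adcyap1, Fezf1, Nptx2 (a synaptic pentraxin, 0.776), Crhr2 (a receptor for urocortins, 0.647) and Cnr1 (the cannabinoid receptor of neurons, 0.573). The median over the 14 was 0.389, beside -0.0184 over all genes. With Adcyap1, 5 of 14 were above 0.5 (1.58% of all genes, list median 0.388), and with Fezf1 3 of 14 (0.614% of all genes, list median 0.251). These counts include the other ventromedial markers of the 6. The likeness was not particular to them: with Brs3 the list median was 0.405, and 3 of 15 were above 0.5 (4.17% of all genes). With Hcrt and Pmch the list medians were 0.126 and 0.139, with 1 of 15 above 0.5 each (7.92% and 4.63% of all genes). Dlk1, the most abundant gene of the list at a median of 225 FPKM, ran the other way, at -0.444 with Nr5a1 and -0.543 with Adcyap1. The list's summed level, which Dlk1, Hpcal1 and Gda dominate, kept to 397 to 462 FPKM. All 6 suprachiasmatic markers had a negative r with Nr5a1, from -0.435 to -0.0844. The same held with Fezf1 (-0.249 to -0.0346), Adcyap1 (-0.462 to -0.175) and the lateral marker Pmch (-0.345 to -0.18). With Hcrt they ran from -0.437 to 0.197 (median -0.367) and with Brs3 from -0.56 to 0.0203 (median -0.204). These are descriptions over the same 18 libraries, and the genes of a list are not independent.

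Among all tested genes, the 3 most like Nr5a1 in pattern were Camkv (r = 0.876), Rasal1 (0.875) and Grhl1 (0.867). Rasal1 and Grhl1 were also among the 3 most like Adcyap1 (0.811 and 0.828), behind Atp6v1c2 (0.838). For Fezf1 the leading gene was Nr5a1 itself, followed by Ncdn (0.752) and Rasal1 (0.737). So Rasal1, which encodes a regulator of Ras, was on the short list of all 3 ventromedial markers, at 7.57 to 18.2 FPKM. These likenesses were measured over 18 libraries and chosen as the highest of 14831 genes, so they carry no test.

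Hcrt, on chromosome 11, lay between 2.57 and 13.95 FPKM, near the level of Nr5a1 and Fezf1. The WT oil libraries held 10.5, 11.8 and 6.83 FPKM and the WT E2 libraries 6.74, 4.73 and 4.31 FPKM. The KIKO oil libraries held 9.05, 6.55 and 5.46 FPKM and the KIKO E2 libraries 12.7, 9.11 and 7.85 FPKM. The ERKO oil libraries held 7.97, 3.87 and 3.54 FPKM and the ERKO E2 libraries 2.57, 5.64 and 13.95 FPKM. The WT oil and WT E2 libraries did not overlap, though 6.83 and 6.74 FPKM nearly met, and ERKO E2 spanned the whole range. E2 changed Hcrt by -0.76 ± 0.40 in WT (limma adjusted p = 0.557), 0.44 ± 0.40 in KIKO (adjusted p = 1) and 0.28 ± 0.40 in ERKO (adjusted p = 0.710). The ERKO value changed sign without ERKO E2 library 3, to -0.26 (limma adjusted p = 1), and leaving out other single libraries of these groups gave 0.10 to 0.77. In KIKO, leaving out single libraries gave 0.26 to 0.61. The difference between the KIKO and WT responses was 1.20 ± 0.57, with an unadjusted p of 0.0511 and a limma adjusted p of 1.00. Under oil ERKO was at -0.85 ± 0.40 relative to WT (limma adjusted p = 0.235). Hcrt rests on few fragments: the authors' confidence bounds reached 22.4% to 47.1% of the value to either side, which corresponds to a median of 44.5 fragments per library.

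Pmch, on chromosome 10, had the widest spread of the 6, from 1.86 FPKM in WT oil library 3 to 74.6 FPKM in ERKO E2 library 3. WT oil was at 17.7, 14.4 and 1.86 FPKM and WT E2 at 4.603, 19.6 and 16.3 FPKM. KIKO oil was at 7.60, 21.6 and 6.14 FPKM and KIKO E2 at 23.5, 29.6 and 8.53 FPKM. ERKO oil was at 13.5, 5.81 and 8.50 FPKM and ERKO E2 at 12.4, 15.7 and 74.6 FPKM. All neighbouring groups overlapped, and the spread within groups exceeded that of 99.4% of tested genes (SD 1.08 on the log2 scale, median gene 0.20). The ERKO E2 mean of 34.2 ± 35.0 FPKM came from its library 3. Its change from ERKO oil, 1.39 ± 0.81 (limma adjusted p = 0.475), was 0.61 with an adjusted p of 1 when that library was left out. The same library had the highest Hcrt, Avp, Oxt and Npvf of all 18 and a summed suprachiasmatic level of 31.9 FPKM, the lowest of all. It also had the lowest Gpr50 and Col25a1, markers of the tanycytes that line the ventricle, at 10.98 and 7.47 FPKM against medians of 40.6 and 36.8 FPKM. Rax and Crym, also on the tanycyte list, were not low there, at 42.1 and 38.7 FPKM (Rax median 30.7 FPKM). The part of these differences in the Pmch value was not tested.

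**Figure D3:**
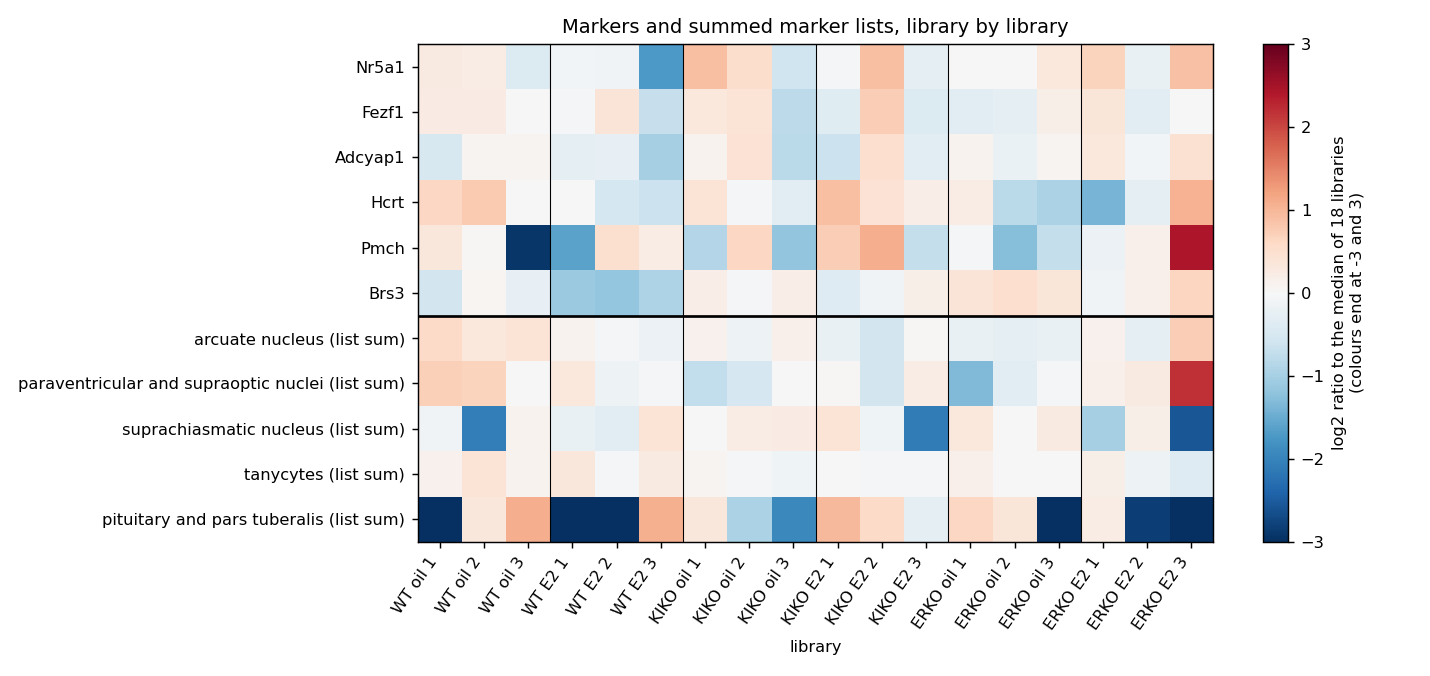
Colour shows the log2 ratio of each marker, and of the summed level of 5 marker lists, to its median over the 18 libraries (horizontal axis, grouped by genotype and treatment). The ventromedial rows share their high and low libraries. ERKO E2 library 3 is high in Hcrt, Pmch and the summed paraventricular and arcuate lists, and low in the suprachiasmatic list. Avp and Oxt lead the paraventricular sum, while Otp of that list is at 11.7 FPKM in this library, against a median of 40.7 FPKM. Of the arcuate list, Sst, Pomc, Cartpt and Ghrh are highest of the 18 libraries in this library, and Tbx3, Isl1, Prlr and Ghsr lowest.

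The genes most like Hcrt in pattern were Plin2 (r = 0.813), Cyb561d2 (0.807) and Ormdl2 (0.807). Those most like Pmch were Lancl1 (0.794), Ppp1cc (0.776) and Tars2 (0.762), and each of these 3 was lower without ERKO E2 library 3, at 0.703, 0.642 and 0.646. No gene stood on both lists. Of the 7 lateral markers listed, 6 were in the tables and 4 reached the level for testing. Apart from Hcrt and Pmch these were Igfbp3 (6.12 to 26.7 FPKM) and Rfx4 (6.99 to 9.71 FPKM). None of the 4 passed the limma test in any of the 9 comparisons, and 1 of them had an unadjusted p under 0.05 in at least 1. In single comparisons 0.944% to 21.7% of all genes had such a p. The share of all genes with it in at least 1 of the 9 is not given here.

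Brs3, on chromosome X, had the lowest level of the 6, at a median of 3.45 FPKM. The WT oil libraries were at 2.37, 3.60 and 2.89 FPKM, and the WT E2 libraries at 1.60, 1.54 and 1.82 FPKM. The KIKO oil libraries were at 3.93, 3.30 and 3.96 FPKM, and the KIKO E2 libraries at 2.65, 3.22 and 3.93 FPKM. The ERKO oil libraries were at 4.55, 4.93 and 4.43 FPKM, and the ERKO E2 libraries at 3.21, 3.81 and 5.37 FPKM. Every WT E2 library was below every other library, and every ERKO oil library was above every WT and KIKO library. The group means rose in the order WT E2 (1.65 ± 0.147 FPKM), WT oil (2.95 ± 0.619), KIKO E2 (3.27 ± 0.641), KIKO oil (3.73 ± 0.372), ERKO E2 (4.13 ± 1.11) and ERKO oil (4.63 ± 0.258). In that order only WT E2 and WT oil were separated, and each later group overlapped the one before it. The group accounted for 83.6% of the variance of Brs3 on the log2 scale, and its spread within groups was 0.19, close to that of the median gene (0.20).

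After E2, Brs3 was higher in ERKO than in WT by 0.93 ± 0.16 (95% interval 0.59 to 1.27, limma adjusted p = 0.00658). It was the 1 marker of 6 that passed in this comparison, in which 1.3% of all tested genes passed. Unadjusted p-values were under 0.05 for 3 of the 6, the others being Nr5a1 and Adcyap1, and for 11.5% of all genes. When only the 6 libraries of these 2 groups were fitted, the change was the same and the adjusted p was 0.412. The F test over all 6 groups also passed for Brs3 alone (limma adjusted p = 0.0166), with 1.17% of all genes passing. That call was lost without WT E2 library 1, 2 or 3 (adjusted p = 0.0963, 0.0997 and 0.0651), without ERKO oil library 2 (0.0525) and with quantile normalization (0.0567).

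Between KIKO and WT after E2, Brs3 differed by 0.68 ± 0.16 (limma adjusted p = 0.0679). No marker passed in that comparison, where 0.944% of all genes did, and 1 of 6 had an unadjusted p under 0.05, as 8.98% of all genes had. This comparison and the ERKO one share the 3 WT E2 libraries. Under oil, ERKO was 0.52 ± 0.16 above WT (limma adjusted p = 0.0939), with 0 of 6 markers past the threshold, and 1.44% of all genes past it. There 1 of 6 markers and 21.7% of all genes were under an unadjusted 0.05. KIKO was 0.27 ± 0.16 above WT under oil (limma adjusted p = 0.614). There 0 of 6 markers and 0.0135% of all genes passed, and no marker was under an unadjusted 0.05, against 10.1% of all genes.

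E2 against oil gave a Brs3 change of -0.57 ± 0.16 in WT (unadjusted p = 0.00293, limma adjusted p = 0.143), with all 3 E2 libraries below the 3 oil libraries. None of the 6 markers passed in WT, against 0.802% of all genes, and 1 of 6 was under an unadjusted 0.05, against 10.3% of all genes. In KIKO and in ERKO the change was -0.16 ± 0.16 each (limma adjusted p = 1 and 0.604). In KIKO 0 of 6 markers and 0.00674% of all genes passed, in ERKO 0 of 6 and 0% of all genes, and no marker was under an unadjusted 0.05 in either (0.944% and 7.19% of all genes). The difference between responses did not pass the limma interaction test: KIKO minus WT was 0.41 ± 0.23 (adjusted p = 1.00, 95% interval -0.07 to 0.89) and ERKO minus WT 0.41 ± 0.23 (adjusted p = 0.444, 95% interval -0.07 to 0.89). For these interactions 0 of 6 markers passed, 0.135% and 0.276% of all genes passed, and no marker was under an unadjusted 0.05 (4.92% and 12.7% of all genes).

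Several Brs3 tests changed side when ERKO E2 library 3 was left out. Without it, Brs3 passed for E2 against oil in WT (limma adjusted p = 0.0374), for ERKO against WT under oil (0.0158) and for KIKO against WT after E2 (0.0122). The changes themselves stayed as reported, at -0.57, 0.52 and 0.68. The share of all genes that passed in this fit is not given here. Over all alternatives, counts of all genes in these comparisons reached 393, 3290 and 1006, against 119, 213 and 140 as reported. Without ERKO E2 library 3 the ERKO difference after E2 was 0.76, with a limma adjusted p of 0.00833. The E2 change in ERKO was then -0.32 (limma adjusted p = 1), and the ERKO minus WT difference between responses was 0.24 (limma adjusted p = 0.667).

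**Figure D4:**
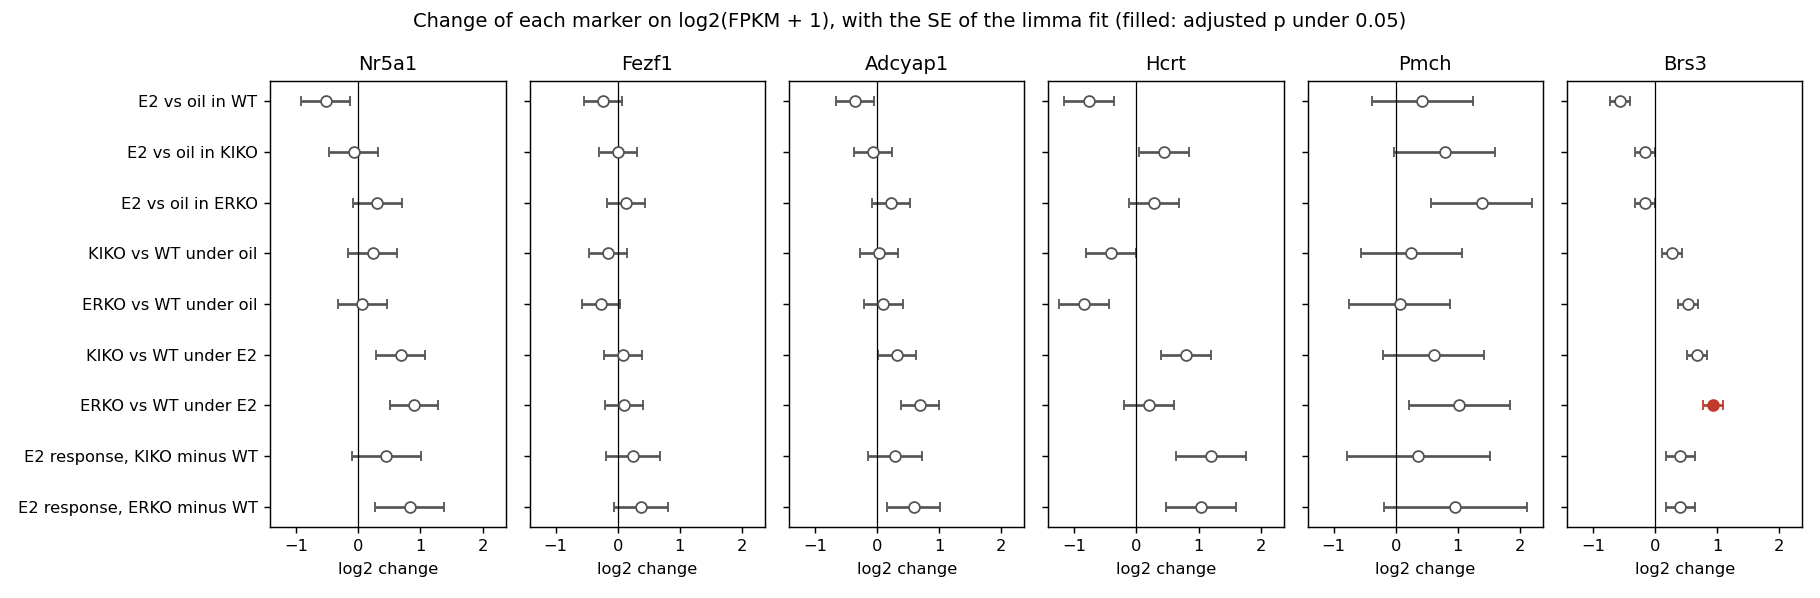
Change of each marker on log2(FPKM + 1) (horizontal axis) with the SE of the limma fit, for the 9 comparisons (rows). The filled point, Brs3 in ERKO against WT after E2, is the only change past the threshold.

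No other dorsomedial marker passed the test that Brs3 passed. Of the 5 listed genes, Brs3 was the only one that passed in ERKO against WT after E2. The other 4 were Npvf, which encodes RFamide peptides (1.34 ± 0.70, limma adjusted p = 0.4997), the cholecystokinin gene Cck (0.57 ± 1.07, adjusted p = 0.927), Ppp1r17 (0.42 ± 0.29, adjusted p = 0.668) and the gastrin-releasing peptide gene Grp (-0.69 ± 0.47, adjusted p = 0.658). Without ERKO E2 library 3 these changes were 0.45 for Npvf, 0.84 for Cck, 0.01 for Ppp1r17 and -0.64 for Grp. In that fit Ppp1r17 passed in ERKO against WT under oil (0.70, limma adjusted p = 0.0219). The share of all genes that passed there is not given here, and over all alternatives 1 to 3290 genes did (213 as reported). Npvf was listed at 0 in WT E2 library 2. The list's summed level ranged from 35.5 to 149.7 FPKM in WT E2 and from 66.4 to 84.2 FPKM in ERKO E2, so those ranges overlapped. The summed level of 5 neuronal markers was 795 to 931 FPKM in WT E2 and 884 to 1054 FPKM in ERKO E2. None of the 5 passed in any comparison, and 2 had an unadjusted p under 0.05 in at least 1. The share of all genes with such a p in at least 1 comparison is not given here. Snap25, a synaptic protein gene of the neuronal list, had an r of 0.714 with Brs3, and its part in the Brs3 difference was not tested.

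Across lists, the gene with the highest r to Brs3 was Kiss1 (0.743), the kisspeptin gene of arcuate neurons that E2 represses. Kiss1 was at 433 ± 81.2 FPKM in WT oil and 38.0 ± 18.9 in WT E2, and higher in ERKO than in WT after E2 by 3.66 ± 0.32 (limma adjusted p = 7.55e-06). Hpcal1, a calcium sensor on the ventromedial list, ran opposite to Brs3 (r = -0.712). It was lower in ERKO than in WT after E2, by -0.68 ± 0.15 (limma adjusted p = 0.0357). Among all genes the 3 most like Brs3 were Zfp879 (0.861), Rnf128 (0.827) and Anxa7 (0.8). With group means subtracted Zfp879 was at 0.4, and Rnf128 and Anxa7 at 0.807 and 0.751.

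In the wider lists, the calls over all 18 libraries included none of Nr5a1, Fezf1 and Adcyap1. Of the 15 ventromedial genes, Bdnf, a neuronal growth factor, fell after E2 in WT from 4.69 ± 0.996 to 1.36 ± 0.381 FPKM (log2 change -1.27 ± 0.19, limma adjusted p = 0.00292). It was higher in ERKO than in WT after E2 (0.83 ± 0.19, limma adjusted p = 0.0483), where Hpcal1 was lower. No other ventromedial gene passed in any of the 9 comparisons. Of the 13 arcuate genes, Kiss1 and Tac2 (neurokinin B) fell and Ghsr (the ghrelin receptor) rose after E2 in WT. After E2, Kiss1 was higher in KIKO than in WT, and in ERKO Kiss1 was higher and Ghsr lower. Th, the rate-limiting enzyme of dopamine synthesis, was lower in ERKO than in WT under oil, and Kiss1 passed both interaction tests. The astrocyte gene Gfap was also lower in ERKO than in WT under oil (-1.06 ± 0.20, limma adjusted p = 0.0284). No gene of the remaining lists, Brs3 aside, passed in any comparison. The 94 genes of all lists had 14 calls in 846 gene comparisons, while 0% to 1.44% of all genes passed in the 9 comparisons. Without ERKO E2 library 3, none of the 14 calls was lost and there were 54, among them 11 of ventromedial, 22 of arcuate and 4 of neuronal genes. The ventromedial genes called without that library were Bdnf, Cnr1, Gda, Hpcal1 and Nkx2-2. The share of all genes that passed without that library is not given here.

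Receptors and related ligands of the markers were expressed in the tissue. Of 10 such genes 9 were tested, and none passed the limma test in any of the 9 comparisons. An unadjusted p under 0.05 in at least 1 comparison was found for 3 of them. In single comparisons 0.944% to 21.7% of all genes had such a p, and their share over the 9 is not given here. The orexin receptors were at 2.95 to 4.01 (Hcrtr1) and 2.65 to 3.66 FPKM (Hcrtr2) by group mean. Mchr1, the receptor for melanin-concentrating hormone, was highest in WT E2 (10.9 ± 1.22 FPKM) and lowest in ERKO oil (5.03 ± 0.331 FPKM). Its change after E2 was 0.50 ± 0.21 in WT (limma adjusted p = 0.399), and its r with Brs3 was -0.609. Without ERKO E2 library 3, Mchr1 passed in 3 comparisons, with a change of -0.90 in ERKO against WT after E2 (limma adjusted p = 0.00288). The share of all genes that passed in that fit is not given here. Over all alternatives, 14 to 1283 genes passed in ERKO against WT after E2, and 193 as reported. Nmb and Grp, peptides of the bombesin family, were at 12.2 to 17.8 and 7.84 to 14.5 FPKM by group mean, and their receptors Nmbr and Grpr were at 1.54 to 2.44 and 1.36 to 2.67 FPKM.

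The sequence before the transcription start was examined because the KIKO receptor bears on estrogen response elements. Promoter windows of RefSeq (GRCm38.p6, 250 bases before to 50 after the start) were found for 5 of the 6 markers, as 6 windows, since Adcyap1 has 2. Printed here are the 150 bases before the start, 5′ to 3′ on the gene's strand, of Brs3, which differed between groups, of the ventromedial markers Fezf1 and Adcyap1, which varied together, and of Pmch. Brs3 is at chrX:57042924-57043073 (plus strand), Fezf1 at chr6:23248265-23248414 (minus strand), Adcyap1 (second window) at chr17:93199018-93199167 (plus strand) and Pmch at chr10:88090922-88091071 (plus strand). Capitals mark the TATA box TATAAA and, in Pmch, the AP-1 site TGANTCA.
Brs3: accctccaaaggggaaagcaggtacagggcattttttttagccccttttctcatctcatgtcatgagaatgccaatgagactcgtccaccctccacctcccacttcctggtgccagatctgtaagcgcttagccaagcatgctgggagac
Fezf1: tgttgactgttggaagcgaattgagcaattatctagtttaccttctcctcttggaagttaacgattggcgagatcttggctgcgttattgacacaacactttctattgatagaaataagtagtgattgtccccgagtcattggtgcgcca
Adcyap1: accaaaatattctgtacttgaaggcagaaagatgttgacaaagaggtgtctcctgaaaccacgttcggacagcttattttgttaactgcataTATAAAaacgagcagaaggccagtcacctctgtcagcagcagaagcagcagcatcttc
Pmch: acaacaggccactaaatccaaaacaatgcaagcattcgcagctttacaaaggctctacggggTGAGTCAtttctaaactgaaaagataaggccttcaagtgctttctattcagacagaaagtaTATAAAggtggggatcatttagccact

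The 6 motifs searched on both strands of the 300-base windows were the estrogen response element GGTCANNNTGACC, its GGTCA arm, the extended site CAAGGTCA that Nr5a1 binds, the cAMP response element TGACGTCA, the AP-1 site TGANTCA and the TATA box TATAAA. The first and the extended site both contain GGTCA. Neither the full element nor its arm was present in any of the 6 windows, nor were CAAGGTCA and TGACGTCA. Over 32851 mouse promoter windows of this length the full element was in 0.07%, GGTCA in 40.5%, CAAGGTCA in 1.56% and TGACGTCA in 1.79%. TATAAA, present in 13.6% of windows, stood at -27 from the start in Pmch, at -33 in Hcrt and at -58 in the second Adcyap1 window. TGANTCA, present in 7.81%, was in Pmch alone, as TGAGTCA at -88. A match here is a match of letters, and its absence says only that these letters are not in this window.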

How the data were processed

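RNA from microdissected arcuate nucleus was measured in 18 libraries, 3 for each of 6 groups taken from the labels. The authors deposited a table per library with FPKM values, confidence bounds and a status for each gene, per the file headers. The submitters' processing notes name TopHat2 2.0, Cuffdiff and mm10. The gene positions in the tables do not lie on that build (4.832% of starts lie within 1000 bases of GRCm38), so none is used. Entries sharing a symbol were summed. Total counts were not used here. Relative depth and fragment numbers were inferred from the width of the confidence bounds. Of the 108 marker values, 87 gave a whole number within 0.02, and all had the status OK. Intervals cover counting error only.

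Log2(FPKM + 1) was fitted with limma 3.58.1 (R 4.3.3) over 14831 genes whose mean reached 0.5 FPKM: 6 group means, 12 residual degrees of freedom, variance trend, robust moderation, two-sided tests. The added 1 makes changes of low genes smaller than the ratio of their means. Correlations of the 15 marker pairs used 100000 permutations (Python 3.11.15, numpy 2.4.6, pandas 2.3.3, figures with matplotlib 3.10.9). The fit and the correlations were tested on simulated data. The markers, the marker lists and the tests were chosen with earlier results of these data known. Named besides the 6 markers are Esr1, the 3 genes most like each marker (without clone-named and small RNA genes), and from the lists the most abundant genes and those past the threshold. The most abundant genes of lists outside the hypothalamic nuclei are given only through summed levels.

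Replicate numbers did not pair libraries: of 45 same-number pairs, 9 had deviations correlated above 0.1 (range -0.343 to 0.405). Alternatives covered the pseudocount, filter, scaling, variance model, library weights, libraries fitted, a replicate block and each library left out.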

Additional observations from a re-analysis of the deposited data

How the results depend on the processing

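The 3 correlated pairs of ventromedial markers passed in all 20 alternatives tried on pairs. These were group means subtracted, a pseudocount of 0.1 and each library left out, and no change of scaling was tried on pairs. The Brs3 difference between ERKO and WT after E2 passed in 17 of 18 alternatives, with changes of 0.76 to 1.24 and limma adjusted p from 0.00479 to 0.412. The number of markers past the threshold there went from 1 to 0 when only the groups compared were fitted. With limma library weights it went from 0 to 1 for E2 against oil in WT, for ERKO against WT under oil and for KIKO against WT after E2, and in the last also with a pseudocount of 0.1. Leaving out single libraries gave 0 to 1 in these 3 comparisons and in the F test over the groups, where quantile normalization gave 0 in place of 1. The replicate block changed no marker's call. The block without library ERKO E2 3, chosen after seeing the data, gave 1 for E2 in WT. It gave 2 for ERKO against WT under oil, 1 for KIKO against WT after E2 and 2 in the F test. In the F test Hcrt passed beside Brs3 (adjusted p = 0.0223). The share of all genes that passed in this setting is not given here. Over all alternatives, counts of all genes reached 3290 for ERKO against WT under oil and 3102 in the F test. The Hcrt change after E2 in ERKO, 0.28 as reported, was -0.235 with library weights and -0.42 with the block and without library ERKO E2 3. It ran from -0.26 (without ERKO E2 library 3) to 0.77 when single libraries were left out. The cause of these shifts was not tested. Of all 54 marker changes, 24 changed sign in at least 1 alternative, the smallest unadjusted p among them being 0.229.

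Counts over all genes moved more: 69 to 393 for E2 in WT (119 as reported), 0 to 4 in KIKO (1) and 0 to 1 in ERKO (0). For KIKO against WT they were 0 to 342 under oil (2) and 51 to 1006 after E2 (140). For ERKO against WT they were 1 to 3290 under oil (213) and 14 to 1283 after E2 (193). The interactions gave 7 to 57 (20) and 17 to 100 (41), and the F test 68 to 3102 (173). By median, Hcrt rests on the fewest implied fragments of the 6 markers (44.5 a library), while the lowest single value is that of Pmch (14.35, with a bound of 52.8% to either side), and 3 libraries a group limit every test.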
